A study of Mus musculus with 9 samples.

Results

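The mitochondrial ribosomal protein genes were taken as the genes whose symbol is Mrpl or Mrps followed by a number and at most 1 letter, with a summed count of at least 90 over the 9 embryos. Of the 55401 genes in the count table, 77 met this rule, and all 77 were among the 17818 genes that passed the filter on low counts. 1 further symbol fits the pattern, Mrpl53 (chr6:83109040-83109939), whose count was 0 in every embryo, while the member with the fewest reads, Mrpl23, had a summed count of 1104. The table counts reads per gene from RNA-seq of bulk forebrain of female embryos at embryonic day 16 to 17 on the C57BL/6J background, the prenatal mouse tissue in which the study asked how the transcription factor NPAS3 bears on energy metabolism. The 5 wild-type (WT) embryos carried both copies of Npas3, and the 4 Npas3+/- (HET) embryos carried 1 constitutive knockout allele, present in every cell from conception, so that the contrast is not limited to any cell type. WT embryos were littermates of the HET embryos in the study's breeding, although the labels do not say which embryos shared a litter. The labels name the cell type as astrocytes, but the samples are whole forebrain. The neuronal tubulin Tubb3 was at 1575 to 1885 CPM (counts per 1000000 counts of the library), whereas the astrocyte genes S100b and Aqp4 were at most at 0.326 and 2.02 CPM and Slc1a3, which radial glia also express, was at 247 to 319 CPM. The whole list of 8 astrocyte genes summed to 667 to 772 CPM in WT and 662 to 742 CPM in HET embryos. S100b and Aqp4 thus do not stand for the whole list.

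The mitochondrial ribosome translates the few proteins that mitochondrial DNA encodes, all of them subunits of the respiratory chain complexes and ATP synthase. Its ribosomal RNAs, mt-Rnr1 in the small and mt-Rnr2 in the large subunit, come from mitochondrial DNA, but every protein of it is encoded in the nucleus, made in the cytosol and imported into the matrix, where the subunits are assembled with the help of GTPases, RNA helicases and methyltransferases. Some of the proteins descend from those of the bacterial ribosome, and the others were gained in the mitochondrial lineage. Inherited defects of these proteins cause respiratory chain disease that often affects brain, heart or liver.

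By nomenclature, 26 of the 77 genes encode small subunit proteins and 50 encode large subunit proteins. The large subunit includes Mrps18a and Mrps30 in spite of their symbols. Mrps36 belongs to neither, because its product is now known as a subunit of the oxoglutarate dehydrogenase complex of the tricarboxylic acid cycle. Of the small subunit genes, 17 have a bacterial counterpart and 9 are mitochondria-specific, and of the large subunit genes 31 and 19. The genes lay on 17 chromosomes with at most 11 on one of them, and none lay on chromosome 12, which carries Npas3.

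Before the comparisons, some facts of the libraries are needed. Total counts of the embryos lay between 42640218 and 62830060, so that a member had between 101 and 5494 reads in an embryo, and all members together made up 0.223% to 0.272% of the reads. Npas3 itself was at 40.8, 35.4, 29.7, 38.3 and 37.01 CPM in the WT embryos and at 27.9, 28.2, 34.1 and 27.8 CPM in the HET embryos, in the order WT 5, 15, 16, 41 and 43 and HET 5, 6, 7 and 24 that is kept below. HET against WT, its value differed by −0.30 on the log2 scale, with a standard error of 0.10, and edgeR's quasi-likelihood test over all genes gave an adjusted p of 0.877, and the groups overlapped at WT 16 and HET 7. Choroid plexus RNA was uneven, with the transthyretin gene Ttr at 2127 to 2631 CPM in WT 15, 16 and 41, at 467 CPM in HET 24 and at 0.770 to 11.7 CPM in the other embryos. WT 16 stood apart from the other WT embryos in the genes described here, and each comparison is therefore given with and without it. In bulk tissue, fewer cells of a type and less RNA per cell cannot be told apart.

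Levels between genes were compared per length, as CPM per 1000 bases of the gene's median protein-coding transcript. On this scale the median of the 77 genes was 19.6, against 9.77 for the other tested protein-coding genes and 446 for the genes of cytosolic ribosomal proteins, whose median was 22.7 times that of the mitochondrial ones. The median was 23.5 for large and 17.6 for small subunit genes. Of the 77 genes, 56 were between 10 and 50, 7 were at 50 or more and 14 were under 10. On this scale the highest level was 26.9 times the lowest.

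Mrps17, a small subunit protein of bacterial origin, had the highest level per transcript length, 99.5, with a range of 90.9 to 106 over the 9 embryos. Mrpl52, a mitochondria-specific large subunit protein, followed at 88.2 with a range of 79.01 to 103. Mrpl20, a large subunit protein with a bacterial counterpart, was at 85.1 with a range of 73.3 to 100. These ranges overlapped, so the order of the leading genes was not separated by the spread between embryos. Mrpl30 was at 80.8 (72.6 to 94.9) and Mrps21 at 75.1 (65.98 to 85.4). At the other end, Mrpl23, whose protein lines the exit of the peptide tunnel, was at 3.70 (3.23 to 4.27), and its range just reached that of Mrps25. Mrps25 was at 4.69 (4.23 to 5.34), Mrpl19 at 5.52 (5.31 to 5.76), Mrps26 at 5.60 (5.20 to 6.46) and Mrpl1, the protein of the mobile stalk beside the tRNA exit site, at 5.69 (5.34 to 6.60). For Mrps25, 69.8% of the exonic bases overlap the gene Nr2c2, and for Mrpl19, 36.0% overlap Gcfc2, so reads of these genes may have been counted differently from the rest. The order also depends on the length used. For Mrps17 the median transcript has 868 bases, whereas its exons cover 6490. Per exonic length, Mrps17 was at 13.3, Mrpl30 at 16.6, Mrpl20 at 25.3 and Mrpl52 at 35.0. Mrpl34 (46.9), Mrpl41 (46.3) and Mrps21 (45.4) were then the highest. Mrpl23 stayed the lowest, at 0.524, followed by Mrps10 at 1.30.

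**Figure D1:**
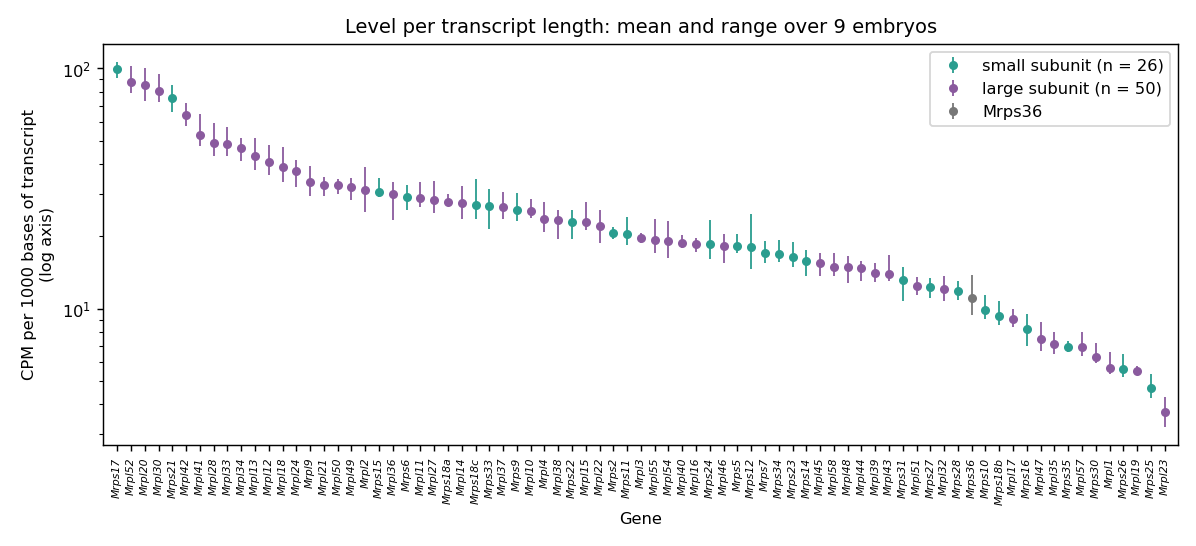
Level of each of the 77 genes per transcript length, as CPM per 1000 bases on a log axis, in falling order; points are means over 9 embryos and bars run from the lowest to the highest embryo. Levels fall from 99.5 for Mrps17 to 3.70 for Mrpl23, and small and large subunit genes are mixed along the order.

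The genes varied little between embryos. The coefficient of variation over the 9 embryos had a median of 7.99% over the 77 genes, against 10.97% over the other tested protein-coding genes, and it was under 5% for 9 genes and at least 10% for 12. Without WT 16 the medians were 5.84% and 10.03%. The other genes had a lower median level per length, 9.77 against 19.6. This coefficient depends on the read count, for which the sets were not matched. The steadiest gene was Mrpl19 at 3.24%, which was at 27.6, 27.03, 26.5, 27.8 and 28.4 CPM in the WT embryos and at 28.7, 28.8, 26.6 and 26.8 CPM in the HET embryos. The most variable was Mrps12 at 18.4%. The median ratio of the highest to the lowest embryo was 1.28, and the largest was 1.69, also for Mrps12.

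The promoters of these genes are another feature they share that the symbol does not set. Of the 77 genes, 33 (42.9%) have the start of another protein-coding gene on the opposite strand within 1000 bases of their own start. The other start can lie upstream or downstream, so these shares are not of upstream starts only. For the other tested protein-coding genes the share was 14.8%. Mrpl46 and Mrps11 are such a pair with each other, and the start of each lies inside the other gene. RefSeq promoter windows on GRCm38.p6, from 250 bases before to 50 bases after the start, were found for 68 of the genes in 74 windows. Their median content was 21 CpG and 58.5% GC, against 7 CpG and 52.7% GC over all 32851 windows. The letters CCGGAAG, the kind of site that ETS factors such as GABPA bind, were present on either strand in 33.8% of the member windows, against 8.86% of all windows and 19.4% of the 8148 windows with at least 21 CpG. The letters TGCGCA, found in the core of sites for NRF1, a regulator of nuclear genes for mitochondrial proteins, were present in 29.7%, against 7.76% and 17.1%. The letters AAGATGGCG, of the YY1 type, were present in 10.8%, against 1.40% and 3.22%. The E-box letters CANNTG, the kind of site named for NPAS3, were present in 63.5%, against 72.3% of all windows and 55.1% of the CpG-rich windows. Such matches describe the letters of a window and not a bound site, and the motifs can overlap one another.

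The windows of 4 genes hold both CCGGAAG and TGCGCA in their longest stretch without exons, and these stretches are given here, followed by the whole stretch between Mrps12 and its divergent neighbour Sars2, because Mrps12 had the largest difference between the groups. Capitals mark CCGGAAG (or CTTCCGG on the other strand) and TGCGCA, and each sequence runs 5′ to 3′ on the strand of the named gene. Mrpl17 is at chr7:105811100-105811337, minus strand, Mrpl22 at chr11:58171414-58171660, plus strand, Mrpl58 at chr11:115403502-115403751, plus strand, Mrps18a at chr17:46110754-46110985, plus strand and Mrps12 at chr7:28741822-28741991, minus strand, on GRCm38.p6.
Mrpl17: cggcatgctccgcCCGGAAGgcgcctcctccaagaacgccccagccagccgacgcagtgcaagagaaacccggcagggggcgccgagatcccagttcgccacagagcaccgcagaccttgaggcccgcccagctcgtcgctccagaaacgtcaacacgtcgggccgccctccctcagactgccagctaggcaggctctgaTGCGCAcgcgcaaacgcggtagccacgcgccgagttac
Mrpl22: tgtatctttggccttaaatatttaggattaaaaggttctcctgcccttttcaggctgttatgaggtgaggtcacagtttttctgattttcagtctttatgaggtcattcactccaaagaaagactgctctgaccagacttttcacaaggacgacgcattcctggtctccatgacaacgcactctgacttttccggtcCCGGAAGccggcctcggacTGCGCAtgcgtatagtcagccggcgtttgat
Mrpl58: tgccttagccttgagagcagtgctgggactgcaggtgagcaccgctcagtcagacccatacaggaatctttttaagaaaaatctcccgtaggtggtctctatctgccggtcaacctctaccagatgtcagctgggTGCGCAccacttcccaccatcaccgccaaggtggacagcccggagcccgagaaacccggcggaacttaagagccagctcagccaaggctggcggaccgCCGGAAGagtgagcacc
Mrps18a: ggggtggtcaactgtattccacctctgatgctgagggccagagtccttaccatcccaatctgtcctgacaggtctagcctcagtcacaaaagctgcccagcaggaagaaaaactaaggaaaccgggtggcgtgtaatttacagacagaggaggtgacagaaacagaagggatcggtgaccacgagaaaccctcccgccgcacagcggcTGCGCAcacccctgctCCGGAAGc
Mrps12: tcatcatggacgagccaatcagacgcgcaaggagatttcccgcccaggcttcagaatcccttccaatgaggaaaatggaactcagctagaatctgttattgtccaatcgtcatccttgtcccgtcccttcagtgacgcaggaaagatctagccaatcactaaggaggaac
Mrpl58 encodes a peptidyl-tRNA hydrolase that became part of the large subunit, and Mrpl17 and Mrpl22 encode large subunit proteins of bacterial origin. In the 170 bases shown for Mrps12 neither capital motif nor an E-box was present. The full promoter window of Mrps12 (chr7:28741772-28742071) does hold 1 CCGGAAG, which is not within the bases shown, but no TGCGCA or E-box.

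In the comparison of HET with WT, no mitochondrial ribosomal protein gene passed the threshold. At an adjusted p of 0.05 in edgeR's quasi-likelihood test, 25 of the 17818 tested genes were called (0.14%), and 0 of the 77 members were among them. At an unadjusted p of 0.05 the share over all tested genes was 5.42%, and again 0 members were under it. The lowest p of a member was 0.0813, for Mrps31, and the lowest adjusted p of a member was 0.911. DESeq2 called 85 genes (0.397%), and limma-voom 25, and neither called a member. No member had HET and WT embryos that did not overlap, against 1.85% of all tested genes, of which 1.07% had every HET embryo under all WT embryos and 0.786% had the reverse.

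The small differences had mostly one sign. The log2 fold change was below 0 for 64 of the 77 genes, against 51.5% of all tested genes, and its median was −0.06, a decrease of 3.87%, against −0.005 over all tested genes. It lay between −0.26 for Mrps12 and 0.04 for Mrpl42, with 11 genes below −0.1 and 0 above 0.1. The small subunit genes had a median of −0.06 with 21 of 26 below 0, and the large subunit genes −0.06 with 43 of 50 below 0. The groups by origin were counted as well. The 17 small subunit genes with a bacterial counterpart had 14 below 0 and the 9 specific ones 7, and the 31 large subunit genes with a counterpart had 27 below 0 and the 19 specific ones 16.

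The count of genes below 0 depended on which embryos were compared. Without WT 16, 20 of 17678 tested genes were called (0.113%) and 0 members, 4.45% of all tested genes and 0 members had an unadjusted p under 0.05, and 41 of the 77 genes were below 0 and 36 above, against 52.1% of all tested genes below 0. The median fell in size to −0.01, a decrease of 1.03%. Of the 64 genes that were below 0 over 9 embryos, 41 stayed below 0 and 23 moved above 0, and all 13 that were above 0 stayed there. The small subunit genes had 15 of 26 below 0 with a median of −0.02, and the large subunit genes 26 of 50 with a median of −0.01. Leaving out HET 7 instead left 50 genes below 0 with a median of −0.03, and leaving out both embryos left 29 with a median of 0.02. Among the 5 embryos with Ttr up to 100 CPM, WT 5 and 43 and HET 5, 6 and 7, which also leave out WT 16, 54 of the 77 genes were below 0 with a median of −0.05, against 49.4% of all tested genes. Leaving out WT 16 alone thus nearly evened the signs, whereas this smaller set without WT 16 kept more genes below 0 than above. In the plot of fold changes with and without WT 16, nearly all genes move up together, and Mrps12 is the clearest of those that move down.

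**Figure D2:**
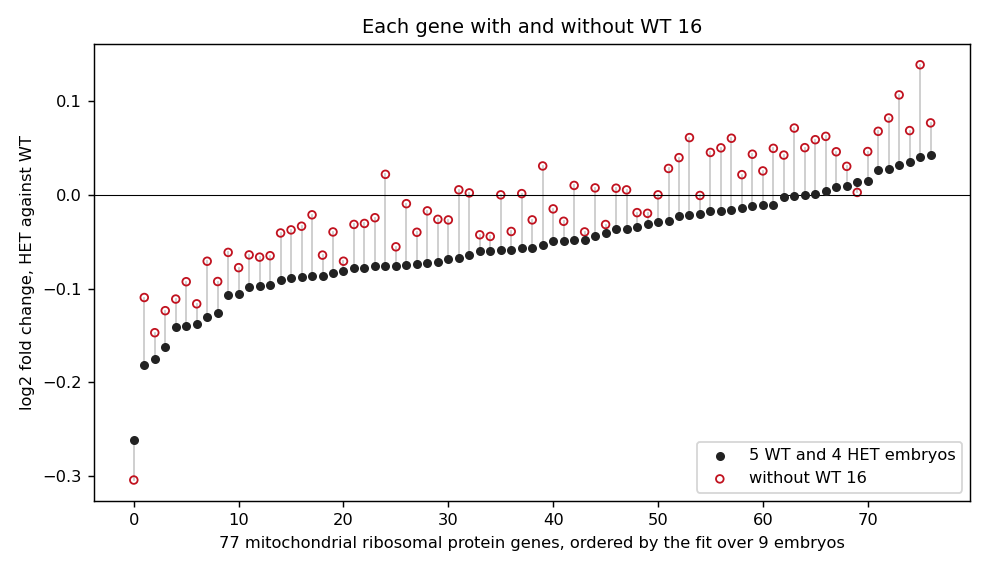
Log2 fold change of HET against WT for each of the 77 genes, over all 9 embryos (filled) and without WT 16 (open), ordered by the former; the grey line joins the values of a gene. With all embryos 64 genes lie below 0, and without WT 16 there are 41.

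The precision of these values sets what could have been seen. The median standard error of the log2 fold change was 0.08, and the 95% interval of 76 of the 77 genes lay within 0.5 of 0 on the log2 scale, that of 45 genes within 0.25. Without WT 16 the interval of 60 genes lay within 0.25. The exception at 0.5 was Mrps12, whose interval was −0.58 to 0.05.

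**Figure D3:**
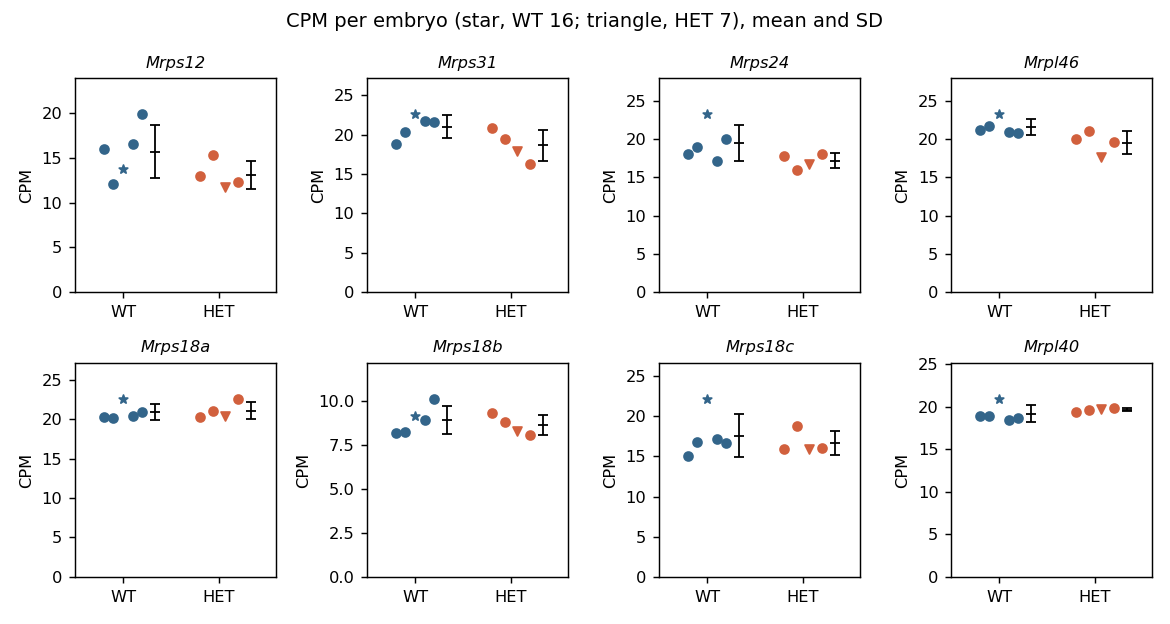
CPM in each embryo for 8 genes, with WT in blue and HET in red; the star marks WT 16, the triangle HET 7, and the bar beside each group gives the mean and SD. Mrps12 has its highest value in WT 43 and its lowest in HET 7, whereas in 6 of the other 7 genes the star of WT 16 is the highest point.

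Among the small subunit genes, the largest difference was that of Mrps12 (ENSMUSG00000045948; chr7:28739641-28741820, minus strand), which encodes a protein of the decoding centre, where the codon meets its tRNA. It was at 16.04, 12.1, 13.8, 16.6 and 19.9 CPM in the WT embryos and at 13.03, 15.3, 11.8 and 12.3 CPM in the HET embryos. The HET values lay within the range of the WT values except for HET 7, which was just below the lowest WT embryo, WT 15. The means were 15.7 ± 2.97 CPM in WT and 13.1 ± 1.56 CPM in HET embryos. On the log2 scale HET differed from WT by −0.26, with a standard error of 0.14 and an edgeR adjusted p of 0.911, and by −0.30 without WT 16. It is the member with the lowest deviation in WT 16, −0.21 on the log2 scale against the other WT embryos. Its divergent neighbour Sars2, the mitochondrial seryl-tRNA synthetase whose start lies 172 bases away, was at 14.03 ± 1.77 CPM in WT and 13.5 ± 1.39 CPM in HET embryos, with a log2 fold change of −0.06 and an unadjusted edgeR p of 0.630.

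Mrps24 (ENSMUSG00000020477; chr11:5703983-5715680, minus strand), a protein of the small subunit head with a bacterial counterpart, was at 17.99, 18.997, 23.3, 17.1 and 19.98 CPM in the WT embryos and at 17.8, 15.95, 16.8 and 18.1 CPM in the HET embryos. WT 16 was the highest, and the HET range overlapped WT 5 and WT 41. Its log2 difference, HET minus WT, was −0.18 with a standard error of 0.10 (edgeR, adjusted p = 0.911) and −0.11 without WT 16. Mrps31 (ENSMUSG00000031533; chr8:22411361-22429665, plus strand), which is mitochondria-specific, was at 18.8, 20.3, 22.6, 21.7 and 21.6 CPM in the WT embryos and at 20.9, 19.4, 17.96 and 16.2 CPM in the HET embryos. HET 5 and HET 6 lay among the WT values, and HET 7 and HET 24 lay below all of them. The log2 difference was −0.17 with a standard error of 0.09 (edgeR, adjusted p = 0.911) and −0.15 without WT 16.

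Mrps10, a head protein of bacterial origin, was at 9.84, 10.97, 12.2, 10.2 and 11.9 CPM in the WT embryos and at 9.79, 10.2, 9.71 and 9.62 CPM in the HET embryos. All HET embryos were between 9.62 and 10.2 CPM, and WT 5 and WT 41 lay in that range. Its log2 fold change was −0.16 and became −0.12 without WT 16. Mrps22, mitochondria-specific and a known gene of respiratory chain disease, was at 25.6, 28.4, 30.4, 28.6 and 30.8 CPM in the WT embryos and at 28.7, 27.4, 25.2 and 23.3 CPM in the HET embryos, with HET 24 and HET 7 below every WT embryo and HET 5 above 3 of the 5. Mrps5, near the mRNA entry, was at 83.8 ± 4.996 CPM in WT and 78.3 ± 1.503 CPM in HET embryos, and its log2 fold change of −0.10 became −0.06. Mrps35, a mitochondria-specific protein, was at 29.6 ± 0.948 CPM in WT and 28.003 ± 0.396 CPM in HET embryos, with a log2 fold change of −0.08 and, without WT 16, −0.07. Mrps17, the member with the highest level per transcript length, was at 87.9 ± 3.91 CPM in WT and 84.4 ± 4.09 CPM in HET embryos, with a log2 fold change of −0.06. For Mrps21, Mrps25 and Mrps26 the log2 fold changes were 0.03, 0.01 and −0.01, smaller than their standard errors of 0.09, 0.08 and 0.08.

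The 3 paralogues of a single bacterial small subunit protein take different places, Mrps18a in the large and Mrps18b and Mrps18c in the small subunit. Mrps18a was at 20.3, 20.1, 22.6, 20.4 and 20.8 CPM in the WT embryos and at 20.2, 21.1, 20.4 and 22.5 CPM in the HET embryos, with a log2 fold change of 0.02. Mrps18b was at 8.18, 8.25, 9.13, 8.92 and 10.1 CPM in the WT embryos and at 9.35, 8.80, 8.31 and 8.06 CPM in the HET embryos, with a log2 fold change of −0.05. Mrps18c was at 15.1, 16.7, 22.2, 17.2 and 16.7 CPM in the WT embryos and at 15.9, 18.8, 15.9 and 16.1 CPM in the HET embryos, with a log2 fold change of −0.08 that was 0.02 without WT 16. WT 16 was the highest embryo for Mrps18a and Mrps18c but not for Mrps18b, where WT 43 was. Per transcript length, the levels were 27.8, 9.35 and 26.9. On that scale the paralogue of the large subunit and Mrps18c were at similar levels and Mrps18b was lower in every embryo. Per exonic length, the levels were 5.68, 4.21 and 15.95, so the similarity of Mrps18a and Mrps18c depends on the length used. More than 20% of the exonic bases of Mrps18b and Mrps18c overlap another annotated gene, 30.5% and 23.2%.

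Among the large subunit genes, Mrpl46 (ENSMUSG00000030612; chr7:78775236-78783531, minus strand), mitochondria-specific, had the lowest log2 fold change. It was at 21.1, 21.6, 23.3, 20.9 and 20.8 CPM in the WT embryos and at 19.9, 21.1, 17.6 and 19.6 CPM in the HET embryos. HET 6 lay among the WT values, and the other HET embryos lay below all of them. The means were 21.5 ± 1.01 CPM in WT and 19.5 ± 1.44 CPM in HET embryos, and the log2 difference of −0.14 with a standard error of 0.08 (edgeR, adjusted p = 0.911) was −0.11 without WT 16. Its divergent partner Mrps11, which starts on the other strand and was named for this position after its values were seen, was at 21.7 ± 2.31 CPM in WT and 21.4 ± 1.52 CPM in HET embryos, with a log2 fold change of −0.02.

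Mrpl47, a protein at the tunnel exit with a bacterial counterpart, was at 24.3, 25.7, 29.6, 26.7 and 25.2 CPM in the WT embryos and at 23.9, 25.3, 22.5 and 23.8 CPM in the HET embryos. HET 6 lay above WT 5 and WT 43, and the log2 fold change of −0.14 became −0.09 without WT 16. Of its exonic bases, 24.2% overlap Ndufb5, a gene of respiratory complex I. Mrpl32, whose maturation by a matrix protease controls late assembly of the large subunit, was at 34.7, 35.8, 41.4, 36.8 and 40.6 CPM in the WT embryos and at 36.7, 36.05, 33.4 and 32.5 CPM in the HET embryos, with HET 24 and HET 7 below all WT embryos and a log2 fold change of −0.13, or −0.09 without WT 16. Mrpl1 was at 19.4, 19.6, 22.6, 20.9 and 18.3 CPM in the WT embryos and at 18.7, 18.7, 18.8 and 18.7 CPM in the HET embryos. The HET embryos were nearly equal and WT 43 was below them, and the log2 fold change was −0.11, or −0.06 without WT 16.

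The genes with the highest log2 fold changes were Mrpl42, Mrps36, Mrpl40, Mrpl13 and Mrps21, at 0.03 to 0.04. Mrpl42, mitochondria-specific, was at 44.1, 38.2, 45.8, 39.3 and 41.9 CPM in the WT embryos and at 44.8, 47.6, 40.01 and 40.1 CPM in the HET embryos, with HET 6 the highest embryo. Mrpl40, which lies in the region whose human counterpart is deleted in DiGeorge syndrome, was at 18.9, 18.9, 20.9, 18.4 and 18.7 CPM in the WT embryos and at 19.4, 19.6, 19.7 and 19.8 CPM in the HET embryos. Apart from WT 16, the highest of the 9, the WT embryos all lay under the lowest HET embryo, and the log2 fold change was 0.03 over 9 embryos and 0.07 without WT 16. Without WT 16 it was the 1 member whose groups did not overlap, against 2.89% of all tested genes. Mrpl13 was at 54.7, 46.1, 62.9, 47.7 and 50.4 CPM in the WT embryos and at 55.3, 57.3, 49.1 and 52.6 CPM in the HET embryos, with a log2 fold change of 0.03 that was 0.11 without WT 16. Mrps36, the gene of the oxoglutarate dehydrogenase complex, was at 7.38, 5.99, 8.79, 6.16 and 6.45 CPM in the WT embryos and at 7.21, 7.57, 6.92 and 6.89 CPM in the HET embryos. Its log2 fold change was 0.04, and without WT 16 it was 0.14, the highest of the 77.

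For the large subunit genes with the highest levels per transcript length, the differences were small as well. Mrpl52 was at 39.8 ± 3.41 CPM in WT and 37.7 ± 2.59 CPM in HET embryos (log2 fold change −0.08, or −0.02 without WT 16). Mrpl20 was at 42.8 ± 4.91 CPM in WT and 41.1 ± 2.59 CPM in HET embryos (−0.06). Mrpl30 was at 54.3 ± 5.12 CPM in WT and 52.5 ± 3.43 CPM in HET embryos (−0.05, or 0.01). Mrpl23, the least abundant, was at 2.62 ± 0.280 CPM in WT and 2.48 ± 0.179 CPM in HET embryos (−0.08, or −0.03).

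WT 16 was the highest of the 9 embryos for 63 of the 77 genes, against 18.6% of all tested genes. This held for 45 of the 50 large and 17 of the 26 small subunit genes and for Mrps36. It was above the mean of the other 4 WT embryos for 75 genes, against 49.6% of all tested genes, by a median of 0.21 on the log2 scale, or 15.3%, where the median over all tested genes was −0.003. The scaling of the libraries keeps that median over all tested genes near 0. Of all tested genes, 18.6% were highest and 20.9% were lowest in WT 16, in both cases the largest share of any embryo. The largest excess was that of Mrps36 (0.44), followed by Mrps18c (0.43), Mrpl2 (0.39), Mrpl55 (0.37) and Mrpl54 (0.35). Mrpl2, a core protein of the peptidyl transferase region, was at 33.5, 25.2, 38.8, 28.5 and 32.2 CPM in the WT embryos and at 33.5, 28.7, 29.6 and 30.2 CPM in the HET embryos. The smallest were those of Mrps12 and Mrpl19 (−0.06), both below 0, then Mrpl50 (0.04), Mrps18b (0.05) and Mrps35 (0.05). HET 7 deviated the other way. It was the lowest of the 9 embryos for 29 of the 77 genes, against 13.5% of all tested genes, and below the mean of the other HET embryos for 67.

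Taken per embryo, the median deviation of the 77 genes from their mean over 9 embryos, on the log2 scale, was 0.00 in WT 5, −0.06 in WT 15, 0.19 in WT 16, −0.03 in WT 41 and 0.02 in WT 43. In the HET embryos it was 0.02 in HET 5, 0.01 in HET 6, −0.11 in HET 7 and −0.03 in HET 24. The mean over embryos was 0.02 ± 0.10 in WT (SD, n = 5) and −0.03 ± 0.06 in HET (SD, n = 4), a difference smaller than the SD of either group. The genes of cytosolic ribosomal proteins, 75 in number, moved in the same direction in the extreme embryos, with 0.20 in WT 16 and −0.15 in HET 7, but they were lowest in WT 15, at −0.19, where the mitochondrial ones were at −0.06. The summed level of the 77 genes was 2447 ± 165 CPM in WT (SD, n = 5) and 2360 ± 93.6 CPM in HET (SD, n = 4), with 2723 CPM in WT 16 and 2229 CPM in HET 7.

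**Figure D4:**
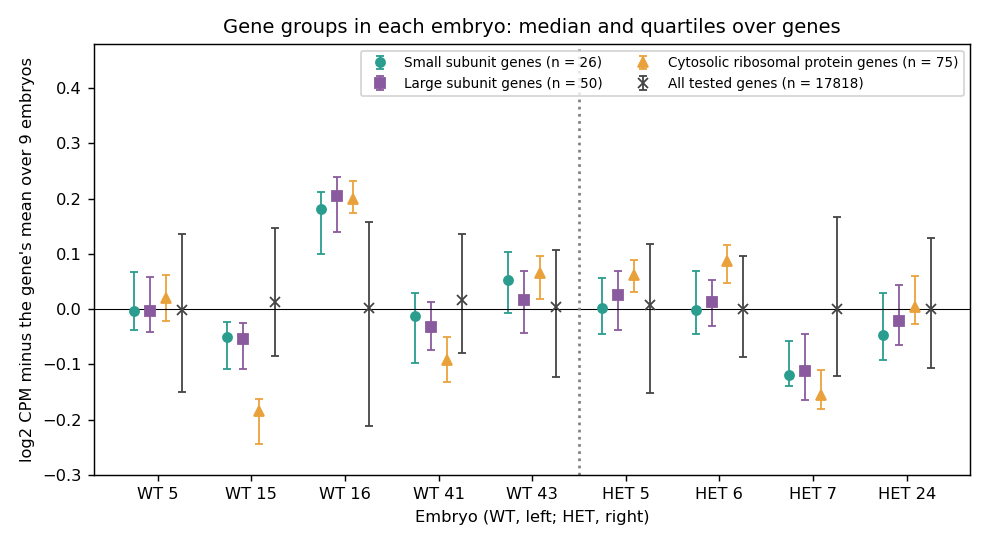
Median and quartiles over genes of log2 CPM minus the mean of each gene over 9 embryos, for the small and large subunit genes, the cytosolic ribosomal protein genes and all tested genes in each embryo. WT 16 lies at 0.18 and 0.21 for the small and large subunit genes and HET 7 at −0.12 and −0.11. The medians over all tested genes are near 0, where the scaling of the libraries keeps them.

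Transcript length moved with the deviation of WT 16. The median transcript of the 77 genes had 1226 bases, against 2784 for the other tested protein-coding genes, and most protein-coding genes with short transcripts were higher in this embryo than in the other WT embryos (84.1% of the other genes under 750 bases, against 32.5% of those of 2500 bases and over). Under 750 bases, the median excess of WT 16 over the other WT embryos was 0.26 for 15 members and 0.25 for 459 other protein-coding genes. From 750 to 999 bases it was 0.20 for 14 members and 0.22 for 579 others. From 1000 to 1499 bases it was 0.22 for 19 members and 0.19 for 1497 others. From 1500 to 2499 bases it was 0.16 for 13 members and 0.11 for 3677 others. At 2500 bases and over, it was 0.17 for 16 members and −0.10 for 8304 others. This class has no upper limit, and the longest transcript of a member had 6073 bases. Lengths were not matched within it, so this difference cannot be told apart from one of length. The alternative that removed a length trend from each library used the exonic length of the gene. For most of the 77 genes this is longer than the transcript. On that scale the trend of WT 16 was 0.02 at 1000, 0.04 at 2000, −0.001 at 4000 and −0.14 at 8000 exonic bases. The values at 1000 and 2000 were under the excess of the classes up to 2499 bases of transcript. With that trend removed, 61 members were below 0 with a median log2 fold change of −0.03, and without WT 16 as well 37 were below 0 with a median of 0.00. Other features of WT 16 were the highest summed erythroid genes (549 CPM, against 215.9 CPM in the lowest WT embryo and 365 to 431 CPM in HET embryos) and the highest Neurod6, a gene of excitatory neurons (1092 CPM, against 707 to 898 CPM in the other WT embryos). Of the 6 erythroid genes, 4 were highest in WT 16. Of the 6 genes of the neuron list, 2 were, and the median excess of that list over the other WT embryos was 0.09. The part of these features in the deviation was not tested. Ttr, which was high in WT 16, was also high in WT 15 and WT 41, and its part was not tested either.

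**Figure D5:**
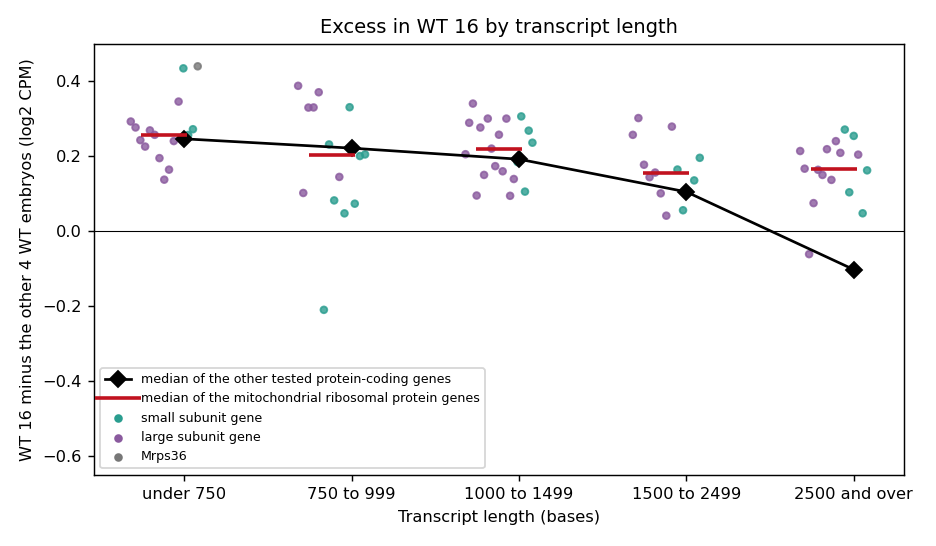
Log2 CPM in WT 16 minus the mean of the other 4 WT embryos for each of the 77 genes, by class of transcript length; red bars are medians of these genes and black diamonds medians of the other tested protein-coding genes. The medians are near each other up to 1499 bases, and at 2500 bases and over they are 0.17 and −0.10. That last class has no upper limit, and lengths were not matched within it.

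Outside the symbols of the rule, other genes of mitochondrial translation were counted from lists by function. Of 5 mitoribosome proteins with other symbols, Dap3, Ptcd3, Aurkaip1, Chchd1 and Gadd45gip1, 4 were below 0 and 0 were called. Dap3, the GTP-binding protein of the small subunit, was at 85.98 ± 6.10 CPM in WT and 81.8 ± 2.87 CPM in HET embryos with a log2 fold change of −0.07, and Ptcd3 at 67.4 ± 2.66 CPM in WT and 63.7 ± 3.65 CPM in HET embryos with −0.08. Without WT 16, 3 of the 5 were below 0.

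Of 16 translation and mRNA factors, 13 were below 0 and 0 were called, and 12 were below 0 without WT 16. The lowest p was that of Lrpprc, which stabilises mitochondrial mRNAs. It was at 80.96, 86.6, 89.9996, 87.5 and 84.5 CPM in the WT embryos and at 77.5, 72.98, 74.8 and 77.9 CPM in the HET embryos. All HET values lay under the lowest WT value, as in 1.07% of all tested genes. The log2 difference was −0.18 with a standard error of 0.05, the unadjusted edgeR p was 0.00599 and the adjusted p 0.702, and without WT 16 it was −0.16. Lrpprc did not pass the threshold in either fit.

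Of 23 assembly factors, 21 were below 0 with a median of −0.09 and 0 were called, and 17 were below 0 without WT 16. Eral1, a chaperone of the small ribosomal RNA, was at 25.7, 24.4, 25.5, 23.9 and 25.5 CPM in the WT embryos and at 23.1, 22.2, 22.01 and 23.2 CPM in the HET embryos. Again no HET embryo reached the lowest WT embryo, and the log2 difference was −0.14 (edgeR, adjusted p = 0.911), or −0.13 without WT 16. Eral1 was named for the lowest p of this list. For Tfb1m of the same list the HET embryos, at most at 8.20 CPM, also lay below the WT embryos, at least at 8.59 CPM. Over all tested genes, 1.07% had every HET embryo under all WT embryos. Of 17 mitochondrial aminoacyl-tRNA synthetases, 14 were below 0 and 15 without WT 16, with 0 called. Lars2, the leucyl-tRNA synthetase, went the other way at 436 ± 109 CPM in WT and 529 ± 56.1 CPM in HET embryos, with a log2 difference of 0.28 (edgeR, adjusted p = 0.911). Of 14 genes for transcription and maintenance of mitochondrial DNA and their regulators, 10 were below 0 with and without WT 16 and 0 were called. Yy1, whose letters were searched in the promoters above, was at 110 ± 9.93 CPM in WT and 122 ± 2.88 CPM in HET embryos with a log2 difference of 0.16 (edgeR, adjusted p = 0.911).

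The ribosomal RNAs of the particle are read only as far as poly(A) capture allows. The small subunit RNA mt-Rnr1 was at 191 ± 27.3 CPM in WT and 209 ± 15.4 CPM in HET embryos with a log2 fold change of 0.13, and the large subunit RNA mt-Rnr2 at 386 ± 58.5 CPM in WT and 368 ± 41.9 CPM in HET embryos with −0.07, and neither passed the threshold.

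The count of genes below 0 was also taken by position and by overlap. Of the 33 genes with a divergent neighbour, 31 were below 0 over 9 embryos and 17 without WT 16, and of the 44 others 33 and 24. Counting was uncertain for 11 members, which share at least 20% of their exonic bases or of their sequence words of 50 bases with another gene. Over the other 66, 55 were below 0 with a median of −0.05, and 35 without WT 16. For Mrpl53, 88.0% of the exonic bases are covered on the same strand by the gene Gm42688, which was at 3.44 to 5.15 CPM, so the count of 0 for Mrpl53 does not show that it was silent. The 6 pseudogene rows with related symbols held 0 to 25 reads per embryo each.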

How the data were processed

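Forebrain RNA of 5 WT and 4 HET female embryos was captured by poly(A), prepared with a TruSeq kit and sequenced by the authors, who used single reads, aligned them to GRCm38.p6 with STAR 2.7.9a and counted them per gene with featureCounts. The deposited values are raw counts, without normalization by the authors. Whether counting used strand is not given in the sources used here. Groups came from the genotype labels. The members and gene lists were chosen with earlier results of these data known. Total counts were 42640218 to 62830060, and precision from them covers counting error only. Nothing in the labels ties embryos to litters, so p-values measure the spread between these 9 samples.

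Counts were filtered (filterByExpr), scaled (TMM) and tested over all 17818 genes with edgeR 4.0.16 (quasi-likelihood, Benjamini-Hochberg) in R 4.3.3, beside limma 3.58.1 and DESeq2 1.42.0. The scripts were tested on simulated data. Levels per length used the median protein-coding transcript of GENCODE release M21 on GRCm38, which lists 55141 of the identifiers, and promoters came from RefSeq on GRCm38.p6 (Python 3.11.15). The genes named were the extremes of log2 fold change, p-value, level per length and WT 16 excess, and the Mrps18 paralogues. Alternatives were other tests, scalings and filters, a trend with exonic length, a choroid plexus score, the samples with Ttr up to 100 CPM, and leaving out each embryo. The combinations with WT 16 left out were added after seeing the data.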

Additional observations from a re-analysis of the deposited data

Results flagged for a closer look

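In 68 groups of embryos, the values of the named genes and the group medians were searched for an embryo whose gap to its nearest neighbour was large for the range of its group by Dixon's criterion. This flagged 5 values, and 3 of the 5 were in WT 16. Chance flags about 1 in 20 groups, or 3.4 of the 68, where groups are unselected and independent. These groups were neither, because some genes were named for their excess in WT 16 and the genes move together. The 5 values can therefore not be set against chance. Mrpl40 in WT 16 was at 20.9 CPM, with the other WT embryos at 18.4 to 18.9 CPM. Mrps26 in WT 16 was at 27.6 CPM, with the other WT embryos at 22.6 to 23.7 CPM. The median log2 deviation of the large subunit genes in WT 16 was 0.205, far above the other WT embryos. In the HET group, Mrpl55 in HET 7 was at 12.9 CPM, with the others at 14.9 to 15.2 CPM, and Mrps18c in HET 6 was at 18.8 CPM, with the others at 15.9 to 16.1 CPM. The cause of these values was not tested.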

How the results depend on the processing

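No mitochondrial ribosomal protein gene was called under any of the alternatives run. For the 31 named genes, 519 of 558 alternative values kept their direction and side of the threshold, 39 changed sign, and the lowest adjusted p among the 558 was 0.468. The count of genes called over the whole table was 25 with edgeR, 85 with DESeq2 and 15 in the samples with Ttr up to 100 CPM, and 14 to 23 when each embryo was left out in turn. Members with an unadjusted p under 0.05 numbered 1 in the fit with the choroid plexus covariate and 1 in the samples with Ttr up to 100 CPM (Mrps12 in both), and 0 to 1 without single embryos. Members below 0 numbered 41 to 72 without single embryos, the fewest without WT 16, and, in fits chosen after seeing the data, 37 without WT 16 with the exonic length trend removed, 40 without WT 16 in DESeq2 and 29 without WT 16 and HET 7.

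Once the choroid plexus score was a covariate, the sign of the log2 fold change turned for Mrpl19 (−0.00783), Mrpl42 (−0.000531), Mrpl54 (0.0382), Mrps21 (−0.0186), Mrps25 (−0.0485) and Mrps26 (0.0402). In the samples with Ttr up to 100 CPM it did for Mrpl20 (0.0142), Mrpl50 (0.0113), Mrpl54 (0.0474), Mrps18c (0.0874), Mrps21 (−0.000376), Mrps25 (−0.0325) and Mrps26 (0.0128). Without single embryos the log2 fold changes of the genes that changed sign ranged as follows. Mrpl13 ranged from −0.00886 to 0.107, Mrpl19 from −0.00338 to 0.0353, Mrpl2 from −0.124 to 0.0309, Mrpl20 from −0.113 to 3.01e-05 and Mrpl30 from −0.0796 to 0.0101. Mrpl42 ranged from −0.00407 to 0.0770, Mrpl54 from −0.0802 to 0.0604, Mrpl55 from −0.0536 to 0.0611, Mrps18a from −0.0183 to 0.0462 and Mrps18b from −0.0894 to 0.00744. Mrps18c ranged from −0.135 to 0.0219, Mrps21 from −0.0184 to 0.0820, Mrps25 from −0.0577 to 0.0491, Mrps26 from −0.0568 to 0.0434 and Mrps36 from −0.00743 to 0.139. The cause of these changes was not tested, and the values concerned are smaller than their standard errors over 9 embryos.

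No paired analysis was possible because the labels do not pair WT with HET embryos. The number 5 occurs in both groups but is not said to mark a pair. Each of the 77 genes had at least 101 reads in every embryo.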
